A study of Mus musculus with 4 samples.

Results

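The 37 genes described here are those that the mouse mitochondrial genome carries, chosen as every gene of the deposited expression table whose symbol begins with mt-, out of 53465 genes in the table. By the annotated biotype they comprise 13 mRNA genes, 22 tRNA genes and 2 rRNA genes, and they are the same 37 genes that the GENCODE M21 annotation places on the mitochondrial chromosome. The libraries came from cultured mouse female germline stem cells (FGSCs), labelled as germ stem cells of the ovary, in which *Nat10*, the RNA N4-acetylcytidine (ac4C) writer, was depleted with a lentiviral short hairpin RNA (shNAT10) or which carried a control hairpin (shNC). All cells of both groups had been infected with lentivirus and selected with antibiotic, and the labels name the cell line only as FGSCs. Each group had 2 libraries, 4 in all, and the expression of each gene was given as FPKM, which is the number of fragments scaled to gene length and library size. The study calls the libraries of a group biological replicates, whereas the sample labels do not say that they came from separate cultures, so that p-values measure the spread between these libraries, which may be technical in part.

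The mitochondrial genome is a compact circle that is read from both strands as long transcripts. Most genes are read from the heavy strand as template and lie on the plus strand of the annotation, where they are called heavy-strand genes here, and those on the minus strand are called light-strand genes. The tRNAs lie between most of the mRNAs and rRNAs, and their excision by RNase P and ELAC2 releases the neighbouring RNAs. The 13 mRNAs code for membrane subunits of respiratory complexes I, III and IV and of ATP synthase, and the 2 rRNAs and 22 tRNAs serve the ribosome that translates them inside the organelle. Proteins that copy, transcribe, cut, modify and translate this genome are encoded in the nucleus. NAT10 itself is a mainly nucleolar enzyme that acetylates cytidines in rRNA, tRNA and mRNA.

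Depth and the identity of the cells were checked first. The recovered fragments on genes numbered 11057922 to 14902438 per library. Nuclear loci listed here as rRNA-related, among them Gm42418 and the lncRNA gene Gm26917 that the study examines, took 45.4% and 35.1% of them in shNC against 23.2% and 25.1% in shNAT10. *Nat10* was at 7.79 and 5.42 FPKM in shNC against 2.95 and 3.04 FPKM in shNAT10, a fitted log2 fold change of -1.09 ± 0.21 (SE, 2 libraries per group, limma with Benjamini-Hochberg adjusted p = 0.123). The 2 shNAT10 libraries lay below both shNC libraries, as the labels state. Of 7 germline markers, Pou5f1, Dazl, Dppa3 and Stra8 were listed at 0 in every library, Ddx4 had 2 fragments in all, and the summed level of 9.38 and 22.3 FPKM in shNC against 27.3 and 33.6 FPKM in shNAT10 came almost wholly from Ifitm3. The study describes STRA8 as not detectable in undifferentiated FGSCs and as raised after *Nat10* knockdown. It characterized its FGSCs by RT-PCR of Oct4, Ddx4, Fragilis and Blimp1 and by immunofluorescence of DDX4 and OCT4. The 3 leukocyte markers summed to 165 and 188 FPKM in shNC against 164 and 173 FPKM in shNAT10, mostly from Coro1a. The 10 mast cell markers summed to 313 and 323 FPKM against 323 and 318 FPKM, mostly from the protease Cpa3, with Fcer1a and Tpsb2 listed at 0. The 5 fibroblast markers summed to 53.4 and 46.7 FPKM against 63.9 and 53.9 FPKM, and the 5 granulosa cell markers, of which 4 had fewer than 10 fragments in all, to at most 0.485 FPKM. The fibroblast and germline sums were higher in both shNAT10 libraries than in either shNC library, and the leukocyte, mast cell and granulosa cell sums overlapped between groups. Of the 30 markers 13 had 50 or more fragments, and 9 of these did not overlap between groups, 5 being higher and 4 lower in shNAT10, where 54.5% of all tested genes with as many fragments did not overlap. Higher were Ifitm3, the fibroblast markers Pdgfra (6.74 and 5.08 FPKM in shNC against 10.8 and 10.2 FPKM) and Thy1, and the mast cell markers Cpa3 (245 and 262 FPKM against 272 and 267 FPKM) and Ms4a2. Lower were the mast cell markers Kit (24.5 and 21.2 FPKM against 14.5 and 15.6 FPKM) and Gata2, so that the mast cell list moved both ways. Also lower were the leukocyte markers Laptm5 (12.97 and 8.54 FPKM against 6.16 and 7.35 FPKM) and, by little, Ptprc (15.54 and 15.38 FPKM against 15.32 and 15.31 FPKM). The cells are therefore called FGSCs only as their label, and the part of the cell makeup in any difference below was not tested.

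Certain sequences bear on how the values of this genome can be read, and they are given first, 5′ to 3′ on the sense strand, as the GENCODE M21 transcripts (GRCm38) give them. mt-Nd3, a complex I subunit gene at chrM:9459-9806, has a near-identical copy in the nuclear genome, the pseudogene Gm28438 at chr1:24612775-24613119 on the minus strand. The 345 bases of the copy differ from mt-Nd3 at 1 position, T3C, counted from 1 at the 5′ end of mt-Nd3 and shown in capitals in the first 33 bases of each.
mt-Nd3: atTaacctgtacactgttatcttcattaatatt
Gm28438: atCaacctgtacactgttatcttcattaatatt

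4 tRNAs are shown because they mark the extremes of the tRNA data: mt-Tp had the most fragments, mt-Ts1 and mt-Tc were those whose level passed the test between groups, and mt-Tf is an example of those listed at 0. The capitals mark the anticodon, found as the middle of a loop of 7 bases closed by a stem of 5 base pairs.
mt-Tp (proline): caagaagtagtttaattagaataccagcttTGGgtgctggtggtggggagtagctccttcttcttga
mt-Ts1 (serine): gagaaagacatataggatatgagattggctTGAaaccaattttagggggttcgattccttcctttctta
mt-Tc (cysteine): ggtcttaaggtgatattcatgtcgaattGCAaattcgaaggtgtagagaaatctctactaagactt
mt-Tf (phenylalanine): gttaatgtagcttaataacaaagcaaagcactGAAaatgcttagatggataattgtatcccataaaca

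The last sequence shows how tightly the genes are packed. The 63 bases below end mt-Atp8 (chrM:7766-7969), and the 43 in capitals are also the first bases of mt-Atp6 (chrM:7927-8607). A fragment from this stretch belongs to both genes.
mt-Atp8, last bases: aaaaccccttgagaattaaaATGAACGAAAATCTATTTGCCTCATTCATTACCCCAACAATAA

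The mitochondrially encoded genes together took 1.48% and 1.72% of all fragments in shNC and 2.13% and 1.95% in shNAT10. The groups did not overlap, with means of 1.60% ± 0.171 and 2.04% ± 0.125 (SD, n = 2 each). The two-sided exact permutation test gave p = 0.333, which is the smallest value that 2 libraries against 2 allow. The mRNAs accounted for most of the difference, at 1.18% and 1.17% in shNC against 1.64% and 1.504% in shNAT10. The Wilson 95% intervals of these shares were at most 0.017 percentage points wide and cover counting error only.

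The share depended on what it was a share of. With these rRNA-related loci left out of the denominator, the mitochondrial genes took 2.71% and 2.65% in shNC against 2.77% and 2.61% in shNAT10, and the groups overlapped with means of 2.68% and 2.69%. The mt-mRNAs took 2.37% and 1.99% of the fragments on protein-coding genes in shNC and 2.34% and 2.20% in shNAT10, which again overlapped. In bulk libraries such as these, a change in the number of cells with many mitochondria and a change in mitochondrial RNA per cell cannot be told apart.

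Within the mitochondrial fragments a few genes dominated. mt-Rnr2, mt-Nd1, mt-Co1 and mt-Cytb together held 77.4% and 78.4% in shNC against 78.1% and 77.1% in shNAT10. The combined share of these 4 genes differed little between the 4 libraries, and the shares of the single genes varied more. mt-Cytb held 13.4% and 11.5% in shNC against 15.4% and 18.0% in shNAT10, and mt-Co1 held 26.1% and 20.8% against 21.8% and 16.3%. mt-Rnr2 held 17.1% and 27.9% in shNC against 19.5% and 19.8% in shNAT10, so that it varied most within shNC. mt-Nd1 held 20.8% and 18.1% against 21.4% and 23.0%.

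**Figure D1:**
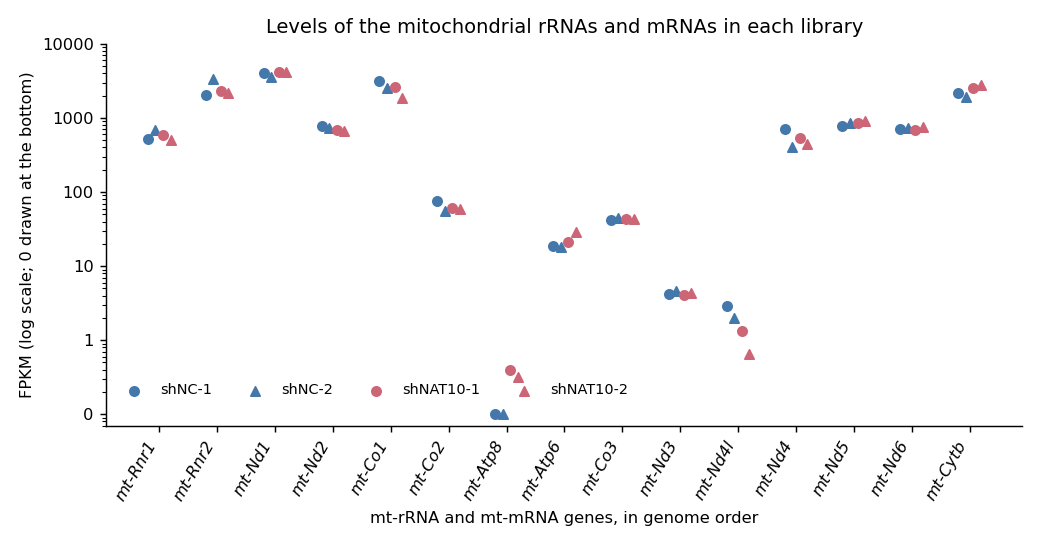
FPKM on a log axis of the 2 mt-rRNA and 13 mt-mRNA genes in genome order, with 1 point per library (blue shNC, red shNAT10, circle replicate 1, triangle replicate 2) and 0 drawn at the bottom. The levels run from 4214 FPKM for mt-Nd1 down to 0 for mt-Atp8, the 6 mRNAs from mt-Co2 to mt-Nd4l form a trough, and the 4 libraries of a gene lie close together beside these differences between genes.

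The 2 rRNAs were compared first. The 12S rRNA gene mt-Rnr1 (chrM:70-1024), which gives the RNA of the small ribosomal subunit, was at 517 and 691 FPKM in shNC against 592 and 498 FPKM in shNAT10. The 16S rRNA gene mt-Rnr2 (chrM:1094-2675), for the large subunit, was at 2026 and 3336 FPKM in shNC against 2317 and 2193 FPKM in shNAT10. For each of the rRNAs the library shNC-2 was the highest and the groups overlapped. The fitted log2 fold changes of -0.14 ± 0.19 for mt-Rnr1 (limma adjusted p = 0.746) and -0.21 ± 0.27 for mt-Rnr2 (limma adjusted p = 0.746) were no larger than their errors. The level of 16S over that of 12S was 3.92 and 4.83 in shNC and 3.91 and 4.41 in shNAT10. Whether the rRNA depletion of these libraries reached the mitochondrial rRNAs is not given in the sources used here.

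Of the 7 complex I genes, mt-Nd1 (chrM:2751-3707) was the most abundant mRNA of this genome per length. It lay at 4091 and 3585 FPKM in shNC against 4191 and 4214 FPKM in shNAT10, without overlap of the groups. The difference of 0.13 ± 0.17 on the log2 scale did not pass the test (limma adjusted p = 0.731). mt-Nd2 (chrM:3914-4951) went the other way without overlap, from 777 and 730 FPKM to 682 and 660 FPKM, and did not pass either (log2 difference -0.17 ± 0.10, limma adjusted p = 0.504).

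mt-Nd4, mt-Nd5 and mt-Nd6, in the distal part of the genome, overlapped between groups. mt-Nd4 (chrM:10167-11544) was at 703 and 403 FPKM in shNC against 537 and 440 FPKM in shNAT10, so that the shNC libraries enclosed the others. mt-Nd5 (chrM:11742-13565) was at 785 and 854 FPKM in shNC against 850 and 924 FPKM in shNAT10. mt-Nd6 (chrM:13552-14070) is the single mRNA gene on the light strand and was at 704 and 725 FPKM in shNC against 688 and 747 FPKM in shNAT10. Its fitted log2 difference was 0.00 ± 0.11. mt-Nd5 and mt-Nd6 lie on opposite strands and share 14 bases, and the strand setting of the counting is not given in the sources used here.

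mt-Cytb (chrM:14145-15288), which codes for cytochrome b, the mitochondrially encoded subunit of complex III, was at 2209 and 1898 FPKM in shNC against 2530 and 2765 FPKM in shNAT10. Both shNAT10 libraries lay above both shNC libraries. The fitted log2 difference was 0.37 ± 0.16 and did not pass the threshold (limma adjusted p = 0.344). The limma-voom fit on recovered fragments, which gives genes with many fragments a smaller error, called it with an adjusted p of 0.0030 at the same size of difference.

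Complex IV has 3 mitochondrially encoded subunits. mt-Co1 (chrM:5328-6872), for the catalytic subunit of cytochrome c oxidase, was at 3171 and 2550 FPKM in shNC against 2640 and 1846 FPKM in shNAT10. The library shNAT10-1 lay above shNC-2, so that the groups overlapped, and the log2 difference was -0.37 ± 0.24 (limma adjusted p = 0.532). The limma-voom fit gave an adjusted p of 0.0277 here as well. The log2 difference of mt-Co1 ranged from -0.62 to -0.11 when a library was left out, and was -0.12 under quantile normalization. mt-Co2 (chrM:7013-7696) was at 76.2 and 55.3 FPKM in shNC against 61.3 and 59.6 FPKM in shNAT10, and mt-Co3 (chrM:8607-9390) at 41.9 and 45.1 FPKM against 43.0 and 42.8 FPKM. Neither differed beyond its error.

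mt-Cytb and mt-Co1 were set against each other after their values had been seen, since a ratio within a library does not depend on scaling. mt-Cytb over mt-Co1 was 0.697 and 0.744 in shNC and 0.958 and 1.5 in shNAT10. The groups did not overlap and their means were 0.73 apart on the log2 scale, while the shNAT10 libraries alone were 0.64 apart, and the exact permutation p was 0.333.

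ATP synthase has 2 mitochondrially encoded subunits, which share a stretch of sequence as shown above. mt-Atp6 was at 18.9 and 18.3 FPKM in shNC against 21.2 and 28.4 FPKM in shNAT10, without overlap. The log2 difference was 0.40 ± 0.16 (limma adjusted p = 0.326) and ranged from 0.19 to 0.61 when a library was left out. mt-Atp8 was listed at 0 in both shNC libraries and had a single fragment in each shNAT10 library. Both groups were under the floor of 3 fragments per library, and no fold change is given for it.

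The levels per length were ordered by their mean FPKM over the 4 libraries. mt-Nd1 led with 4020 FPKM, above the range of the next gene. mt-Co1, mt-Rnr2 and mt-Cytb followed at means of 2552, 2468 and 2351 FPKM with ranges that overlapped. mt-Nd5, at 853 FPKM, stood apart from its neighbours on either side, while mt-Nd6 at 716 FPKM overlapped mt-Nd2 at 712 FPKM, which overlapped mt-Rnr1 at 574 FPKM, which overlapped mt-Nd4 at 521 FPKM. mt-Nd4 did not overlap mt-Co2, to which the mean dropped 8.25-fold, and from there to mt-Atp8 no neighbours overlapped.

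The low genes had a position in common. mt-Co2, mt-Atp8, mt-Atp6, mt-Co3, mt-Nd3 and mt-Nd4l are consecutive mRNA genes of the genome. mt-Nd3 was at 4.16 and 4.60 FPKM in shNC against 4.12 and 4.31 FPKM in shNAT10, on 17 to 23 fragments per library. Copies of 5 of these 6 genes lie in the nuclear genome within a run of 7 annotated pseudogenes at chr1:24611535-24616197, which span 4663 bases. The outer pseudogenes of the run, Gm29216 and Gm28439, are copies of parts of mt-Co1 and mt-Nd4, which were not low, and mt-Atp8 has no annotated copy of its own there. In all, 11 annotated nuclear transcripts matched the mitochondrial genes at 95% identity or more over 80% or more of their length, with 3 on chromosome 2 and 1 on chromosome 13 beside those on chromosome 1.

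The overlap with these copies was measured in words of 50 bases, by the share of a gene's bases that lie in a word found unchanged in a copy. That share was 100% for mt-Co2, 99.9% for mt-Co3, 99.6% for mt-Atp6, 99.0% for mt-Nd4l and 98.3% for mt-Nd3. These 5 mRNAs ranged from 0.659 to 76.2 FPKM over the libraries. mt-Co1, mt-Nd4, mt-Nd5 and mt-Nd2 shared 74.9%, 63.6%, 17.4% and 17.2% and ranged from 403 to 3171 FPKM. mt-Nd1, mt-Nd6 and mt-Cytb shared none and ranged from 688 to 4214 FPKM, with no overlap with the 5 above. mt-Atp8 was the exception, with no such word in an annotated copy and at most 0.390 FPKM. On chromosome 1 an unannotated gap of 233 bases lies between the copies of mt-Atp6 and mt-Co2, which are 230 bases apart on the mitochondrial genome. The sequence of that gap was not analysed here, and whether it holds a copy of mt-Atp8 was not tested. How the authors treated reads with several equal alignments is not given in the sources used here, and its part in these levels was not tested.

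**Figure D2:**
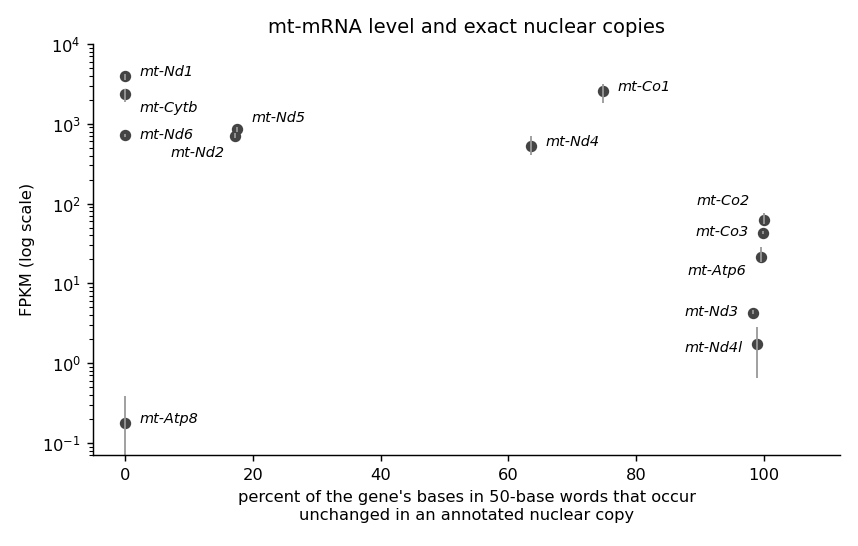
Mean FPKM over the 4 libraries on a log axis, for the 13 mt-mRNA genes, against the percent of each gene's bases that lie in words of 50 bases found unchanged in an annotated nuclear copy. Vertical lines span the lowest to the highest library and run off the axis where a library is at 0. The 5 genes at 98.3% or more lie at or below 76.2 FPKM, and every other gene except mt-Atp8 lies at 403 FPKM or above.

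The copies themselves carried fragments. Gm28438, the copy of mt-Nd3, was at 56.5 and 56.6 FPKM in shNC against 67.2 and 67.9 FPKM in shNAT10, well above the 4.60 FPKM that mt-Nd3 reached at most. Its log2 difference of 0.26 ± 0.08 (limma adjusted p = 0.226) stayed under the required fold change of 1.2, although the groups did not overlap. Gm10222, the copy of mt-Nd4l at chr1:24612407-24612700, was at 15.6 and 16.9 FPKM in shNC against 20.6 and 15.3 FPKM in shNAT10. The other copies named by rule were Gm28661 (mt-Co2, chr1:24614885-24615565) at 18.4 to 48.8 FPKM, Gm10925 (mt-Atp6, chr1:24613974-24614651) at 22.1 to 30.2 FPKM and Gm28437 (mt-Co3, chr1:24613189-24613971) at 20.2 to 26.6 FPKM. Gm28661 was at 48.8 and 20.8 FPKM in shNC against 18.4 and 19.9 FPKM in shNAT10, without overlap. Its log2 difference of -0.73 ± 0.41 did not pass the threshold (limma adjusted p = 0.465). When a library was left out, that difference ranged from -1.35 to -0.12. Gm10925, Gm28437 and Gm10222 overlapped between groups. Gm13341, a copy of mt-Co2 on chromosome 2 that is named here with its values already known, had 0 fragments in both shNC libraries against 4 and 3 in shNAT10. It passed the threshold on these 7 fragments, and passed the filter on low values only through shNAT10.

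Each gene and its copies were then added, since their reads cannot be assigned with certainty. mt-Nd3 held 5.83% to 7.57% of these fragments in the 4 libraries, and mt-Nd4l 4.17% to 15.6%. mt-Atp6, mt-Co3 and mt-Co2 held larger parts, from 41.8% for mt-Atp6 to 76.6% for mt-Co2. For these mostly copied genes the sums reached at most 125 FPKM, for mt-Co2, beside 403 FPKM in the lowest library of mt-Nd4. Reads assigned to neither a gene nor its copies are not in these sums, and how many there were cannot be read from them. The sum for mt-Atp6 was 45.1 and 40.3 FPKM in shNC against 46.0 and 58.5 FPKM in shNAT10, still without overlap, and that for mt-Nd3 was 60.2 and 60.8 FPKM against 70.7 and 71.6 FPKM.

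The test between groups was then read across all members. Of the 37 genes, 27 passed the filter of a mean of 0.1 FPKM, comprising 13 mRNAs, 2 rRNAs and 12 tRNAs, and 4 of the 27 passed the threshold of a fold change over 1.2 with an unadjusted limma p of at most 0.05. Among all 20116 genes tested, 16.2% passed, so that 4 of 27 was near the background share. The 4 were mt-Atp8, higher on 2 fragments, and mt-Nd4l, mt-Tc and mt-Ts1, lower on 25, 17 and 37 fragments in all. At the same fragment total without the rRNA-related loci 6 members passed, 3 higher and 3 lower, where 10.1% of all genes were called higher and 6.1% lower. mt-Atp8 passed the filter only through the group where it was above 0. The smallest limma adjusted p of a member was 0.140, for mt-Ts1, so that 0 members had an adjusted p under 0.05, against 0.437% of all genes and against 4 members at an unadjusted p under 0.05. By limma-voom 2 members, mt-Cytb and mt-Co1, had an adjusted p under 0.05, against 7.87% of all genes.

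The members with more fragments were read separately. Of the 20 members with 50 or more fragments in all, 0 passed the limma threshold and 0 had an unadjusted p under 0.05, whereas 18.9% of all tested genes with as many fragments passed the threshold. By limma-voom 4 of the 20 passed the same threshold, namely mt-Cytb and mt-Atp6 in the higher direction and mt-Co1 and mt-Tw in the lower, against 25.1% of all tested genes with as many fragments. The log2 differences of the 20 lay between -0.57 and 0.40 with standard errors of 0.08 to 0.43. The groups did not overlap for 5 of them, mt-Nd1, mt-Atp6 and mt-Cytb being higher and mt-Nd2 and mt-Tw lower in shNAT10, against 54.5% of all genes with that many fragments. The median log2 fold change was -0.02 over the 13 mRNAs, -0.04 without mt-Atp8, and 0.01 over all genes tested. Scaling to the same total of fragments outside the rRNA-related loci moved the median over all genes up by 0.054, to 0.06, and that of the mRNAs to 0.039, a difference from all genes of -0.020 beside -0.025 before this scaling.

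mt-Nd4l (ENSMUSG00000065947, chrM:9877-10173), a small complex I subunit gene, was the mRNA that fell. It had 10 and 7 fragments in shNC and 5 and 3 in shNAT10, or 2.87 and 1.99 FPKM against 1.34 and 0.659 FPKM. The groups did not overlap, with a log2 difference of -1.25 ± 0.39 (limma adjusted p = 0.241). The call was lost without either shNC library or without shNAT10-2, with log2 differences from -1.71 to -0.79 over the 4 omissions. It was also lost with limma-voom, with no filter on low values and without the trend, with log2 differences of -1.28 to -1.25. Added to its copy Gm10222, from which it differs by no base over the 294 bases of the copy, it came to 18.3 and 18.7 FPKM in shNC against 21.7 and 15.8 FPKM in shNAT10, with a log2 difference of 0.00 and groups that overlapped.

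**Figure D3:**
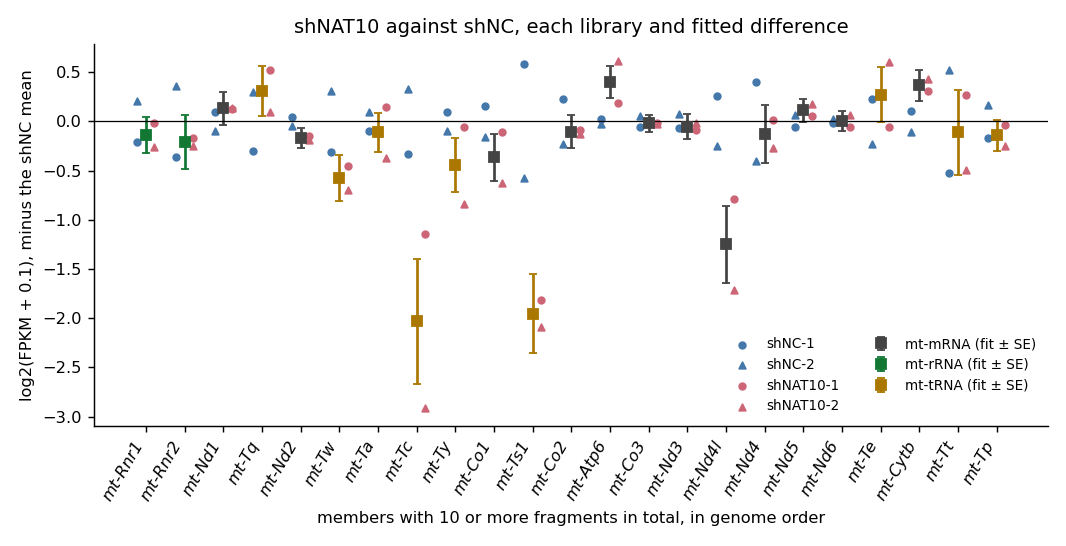
Fitted log2 differences of shNAT10 minus shNC (squares, bars are SE) for the 23 members with 10 or more fragments, with each library's log2(FPKM + 0.1) minus the shNC mean (blue shNC, red shNAT10). The square of mt-Nd4l at -1.25, that of mt-Ts1 at -1.95 and that of mt-Tc at -2.03 stand apart and rest on 17 to 37 fragments, while the other 20 lie between -0.57 and 0.40.

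The 22 tRNAs are 59 to 75 bases long, shorter than a single sequencing read, and most of their values rest on few fragments. In all 4 libraries 10 tRNAs were listed at 0, and 3 more, mt-Ti, mt-Tm and mt-Tn, had 9, 9 and 1 fragments in total. For mt-Tf, 68 bases long, the floor of 3 fragments corresponds to 2.88 FPKM in the deepest library by this measure, shNAT10-2, and to 3.76 FPKM in shNC-1. The 9 others had 17 to 2742 fragments. The zero values say that no fragment was assigned to these genes and not that the tRNAs were absent.

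The strand divided the tRNAs. Of the 14 heavy-strand tRNAs, 10 were listed at 0, 2 had fewer than 10 fragments, and mt-Tw and mt-Tt had 322 and 132. Of the 8 light-strand tRNAs none was at 0 throughout, and mt-Tn was the single one with fewer than 10 fragments. The distance to the next gene on the same strand went along with this division. With same-strand genes within 70 bases on both sides, 13 tRNAs had 0 to 17 fragments, among them the light-strand mt-Tn and mt-Tc. Of the 9 tRNAs with a free side, 8 had at least 30 fragments, among them the heavy-strand mt-Tw and mt-Tt, and mt-Tf, at the start of the annotated chromosome, was listed at 0. The part of the counting in this pattern was not tested.

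**Figure D4:**
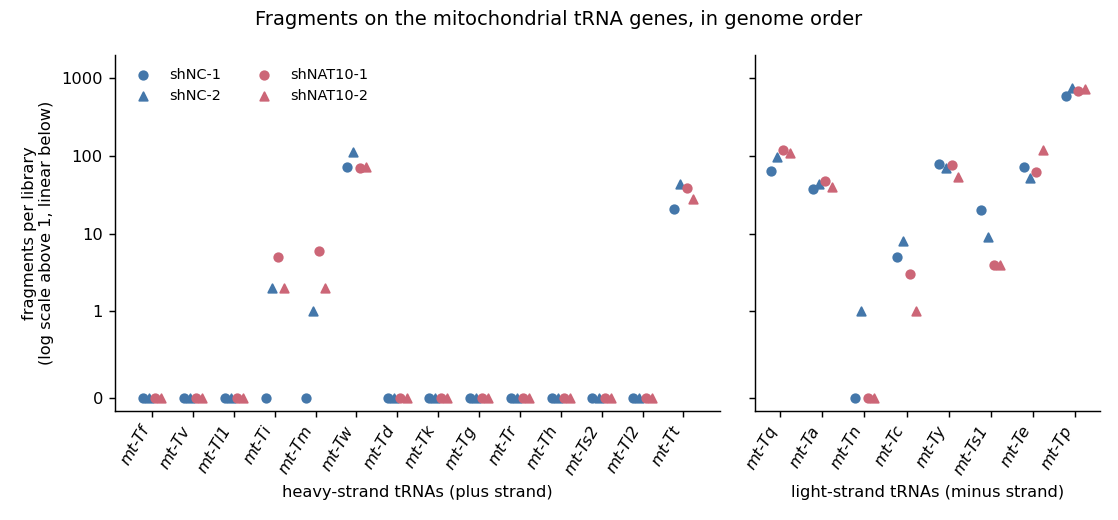
Fragments per library on each of the 22 mt-tRNA genes, in genome order, with heavy-strand genes on the left and light-strand genes on the right; the axis is logarithmic above 1 and linear below. Of the 14 heavy-strand tRNAs 10 lie at 0 in every library, whereas the light-strand mt-Tp reaches 587 to 746 fragments.

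mt-Tp (chrM:15356-15422), the proline tRNA of the light strand, was at 746 and 938 FPKM in shNC against 813 and 706 FPKM in shNAT10, and shNAT10-1 lay between the shNC libraries. Its log2 difference was -0.14 ± 0.16 (limma adjusted p = 0.697). The glutamine tRNA mt-Tq was at 75.5 and 114 FPKM in shNC against 134 and 99.2 FPKM in shNAT10. The glutamate tRNA mt-Te was at 87.6 and 63.5 FPKM against 71.6 and 113 FPKM. Both overlapped between groups.

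The tyrosine tRNA mt-Ty was at 100.4 and 88.0 FPKM in shNC against 90.4 and 52.6 FPKM in shNAT10. The alanine tRNA mt-Ta was at 45.7 and 52.5 FPKM against 54.3 and 37.8 FPKM, and the threonine tRNA mt-Tt at 26.7 and 55.3 FPKM against 46.4 and 27.3 FPKM. In each case the groups overlapped. The tryptophan tRNA mt-Tw did not overlap, with 90.2 and 140 FPKM in shNC against 82.0 and 69.1 FPKM in shNAT10. Its log2 difference of -0.57 ± 0.24 did not pass the threshold (limma adjusted p = 0.329). When a library was left out, that difference ranged from -0.89 to -0.26, and the difference of mt-Ty from -0.84 to -0.057.

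The tRNAs that passed the threshold were both of the light strand. mt-Ts1 (ENSMUSG00000064352, chrM:6870-6938), which reads UCN serine codons, had 20 and 9 fragments in shNC and 4 in each shNAT10 library, or 24.7 and 10.99 FPKM against 4.62 and 3.78 FPKM. It fell by 1.95 ± 0.41 on the log2 scale (limma adjusted p = 0.140). mt-Tc (ENSMUSG00000064349, chrM:5192-5257) had 5 and 8 fragments in shNC and 3 and 1 in shNAT10, a log2 difference of -2.03 ± 0.63 (limma adjusted p = 0.241). The groups overlapped for neither, but each call was lost without 1 library, for mt-Ts1 without either shNAT10 library and for mt-Tc without either shNC library or shNAT10-2. The log2 differences ranged from -2.53 to -1.37 for mt-Ts1 and from -2.92 to -1.14 for mt-Tc over the 4 omissions. The median log2 fold change of the 9 tRNAs with 10 or more fragments was -0.14, beside 0.01 over all genes.

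The nuclear genes that serve this genome were examined as a list of 78, all of which were tested. Of these, 6 passed the threshold (7.69%), 4 higher and 2 lower, against 16.2% of all genes, with 8.41% higher and 7.83% lower. No limma adjusted p was under 0.05 (0 of 78, with 6 called without adjustment), against 0.437% of all genes, and by limma-voom 2 were, against 7.87% of all genes. The median log2 fold change of the list was 0.03, beside 0.01 over all genes.

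Among 25 genes for rRNA and tRNA modification, 3 rose (12%), beside 8.41% of all genes that were called higher and 16.2% called in either direction. Nsun2, which methylates cytosines in tRNAs of the cytosol and of mitochondria, was at 48.3 and 49.6 FPKM in shNC against 64.4 and 66.1 FPKM in shNAT10 (log2 difference 0.41 ± 0.08, limma adjusted p = 0.122, limma-voom adjusted p = 0.0040). Trnt1, which adds the CCA end to tRNAs, was at 25.4 and 28.02 FPKM against 32.1 and 35.4 FPKM. Pus1, a pseudouridine synthase of tRNAs, was at 11.8 and 11.4 FPKM against 13.9 and 15.1 FPKM. All 3 lay higher in both shNAT10 libraries than in either shNC library, and of the 3 only the call of Nsun2 remained whichever library was left out.

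Among 13 translation genes, 2 fell (15.4%), beside 7.83% of all genes that were called lower and 16.2% called in either direction. Tsfm, the exchange factor of the mitochondrial elongation factor Tu, was at 11.9 and 12.3 FPKM in shNC against 8.50 and 8.45 FPKM in shNAT10 (log2 difference -0.51 ± 0.09, limma adjusted p = 0.121, limma-voom adjusted p = 0.0260), and its call held without each library. Oxa1l, which inserts newly made subunits into the inner membrane, was at 7.09 and 6.92 FPKM against 5.92 and 5.12 FPKM.

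Of 11 genes for RNA stability and decay, Pnpt1, the polynucleotide phosphorylase of the mitochondrial degradosome, was the single one called (9.09%, beside 8.41% of all genes called higher and 16.2% in either direction), at 20.5 and 18.7 FPKM in shNC against 23.9 and 23.4 FPKM in shNAT10. The calls of Oxa1l, Pnpt1, Trnt1 and Pus1 were each lost without 1 or another library, which leaves a group with 1 library and takes its spread from the other group. The direction stayed, with log2 differences of -0.44 to -0.24 for Oxa1l, 0.20 to 0.34 for Pnpt1, 0.27 to 0.41 for Trnt1 and 0.26 to 0.38 for Pus1 over the 4 omissions. None of the 9 replication, 10 transcription and 10 RNA processing genes passed the threshold, where 16.2% of all genes did and groups of this size hold few genes, and their medians were -0.01, -0.03 and 0.09 on the log2 scale.

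**Figure D5:**
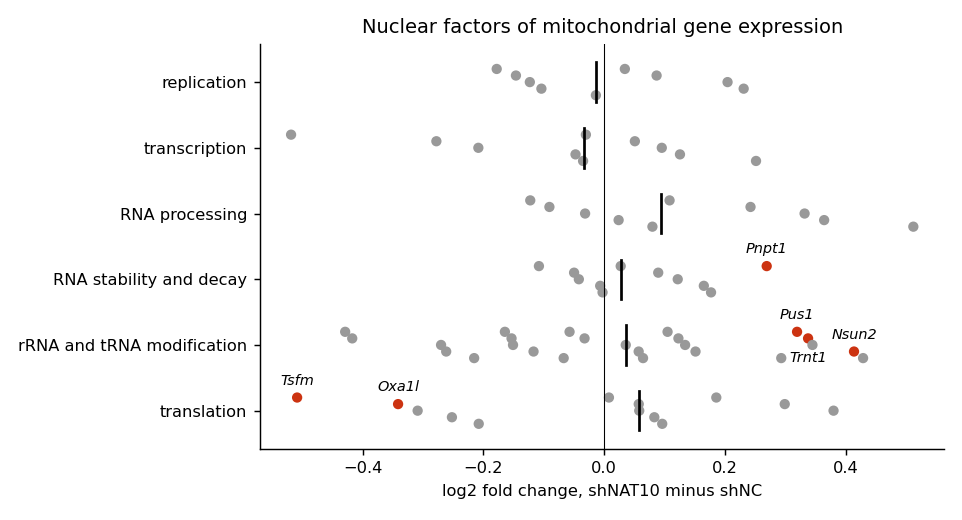
Log2 fold changes of shNAT10 minus shNC for 78 nuclear genes of mitochondrial gene expression in 6 groups, with 1 point per gene, the median of each group as a vertical bar, and the 6 genes that passed the threshold named in red. Most points lie near 0, with Tsfm at -0.51 and Nsun2 at 0.41 the called genes farthest from it on either side.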

How the data were processed

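Long RNA-seq of 2 shNC and 2 shNAT10 libraries was used, grouped by the titles in the labels. According to the methods the authors depleted rRNA, sequenced paired ends and aligned with HISAT2, and the submitters' processing notes name mm10, whereas the labels describe isolation of mRNA. The authors deposited FPKM for 53465 genes per library. How library size was counted, the counting program, its strand setting and its treatment of reads with several alignments are not given in the sources used here. A second table, with the authors' log2 fold change, p-value and adjusted p-value for fewer genes, was not used.

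The members and lists were chosen with earlier results of these data known. Fragments were recovered from the FPKM with GENCODE M21 exon lengths, and 96.3% of values under 50 fragments were whole within 0.02. Totals of 11057922 to 14902438 fragments per library set the precision. Genes averaging 0.1 FPKM or more (20116) were fitted as log2(FPKM + 0.1) by limma 3.58.1 under R 4.3.3, with an intensity trend in eBayes and two-sided p-values, so that fold changes of low genes are understated. A call required more than a 1.2-fold change together with p up to 0.05, the study's own threshold, with Benjamini-Hochberg adjustment over all genes. Fits were tested on simulated data. Nuclear copies were found with blastn 2.17.0 among annotated transcripts. Every mRNA and rRNA member was named, together with tRNAs of 50 or more fragments or past the threshold, nuclear factors past it, and the 5 copies of highest mean FPKM. Any other gene was named with its values already known. Alternatives were pseudocounts of 1 and 0.01, other filters and scalings, limma without trend, limma-voom on recovered fragments, a replicate block and each library left out.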

Additional observations from a re-analysis of the deposited data

How the results depend on the processing

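The count of 4 called members (1 higher and 3 lower) was 6 (3 higher and 3 lower) at the same fragment total without the rRNA-related loci. It fell to 1 with no filter on low values and to 2 with limma without the trend, and ranged from 1 (without shNAT10-2) to 5 when a library was left out. The median log2 fold change of the mt-mRNAs, -0.02, was 0.039 at the same fragment total without the rRNA-related loci, which shifted the median of all genes to 0.06, and 0.0081 under quantile normalization, where that of all genes was -0.01. Its distance from the median of all genes was thus -0.025, -0.020 and 0.019. It was -0.036 at a mean FPKM of at least 1 and also without members under 10 fragments, an alternative chosen after seeing the data. Leaving out a library gave -0.020 to 0.054 for it and -0.49 to -0.011 for the mt-tRNAs. The fold change of *Nat10* ranged from -1.35 to -0.83 without a library, and its call was lost without either shNAT10 library. The share of fragments on mitochondrial genes was 0.438 percentage points higher in shNAT10, 0.00524 points without the rRNA-related loci in the denominator, 0.0902 points for mt-mRNAs among protein-coding fragments and 0.439 points with the nuclear copies. The nuclear factors called numbered 4 to 9 over all alternatives. Where not stated, the cause was not tested.

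Among single genes, mt-Co3 went to 0.039 and mt-Nd3 to 0.0053 at the same fragment total without the rRNA-related loci, which is about the upward shift of 0.054 in the median of all genes, and mt-Co3 to 0.0081 under quantile normalization. Differences that changed sign without a library ranged from -0.35 to 0.070 (mt-Rnr1), -0.57 to 0.15 (mt-Rnr2), -0.37 to 0.15 (mt-Ta), -0.33 to 0.13 (mt-Co2), -0.072 to 0.034 (mt-Co3), -0.12 to 0.019 (mt-Nd3), -0.53 to 0.27 (mt-Nd4), -0.055 to 0.064 (mt-Nd6), -0.059 to 0.60 (mt-Te), -0.64 to 0.41 (mt-Tt), -0.31 to 0.023 (mt-Tp), -0.31 to 0.015 (Gm28437) and -0.086 to 0.34 (Gm10222). None of these had been called in the fit to all libraries. At that fragment total mt-Cytb, mt-Atp6 and Gm28438 passed the threshold (0.43, 0.46 and 0.31), as did mt-Cytb at a mean FPKM of at least 1 (0.37) and mt-Atp6 and Gm28438 under quantile normalization (0.45 and 0.28). The calls of mt-Nd4l and mt-Tc were lost with no filter, without the trend and with limma-voom, at -1.28 to -1.25 and -2.03 to -1.86. Leaving out a library takes the spread of the group with 1 library from the other.

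The replicate numbers gave no sign of a pairing, as deviations of same-numbered libraries correlated at -0.00168 over 12138 genes. With 2 libraries per group this is a single correlation, which cannot show that no pairing exists. With the replicate number as a block 4 members and 5 nuclear factors were called, and the medians stayed at -0.02 for mt-mRNAs and -0.14 for mt-tRNAs, with *Nat10* at -1.09. Depth limits the members with 37 or fewer fragments most, and 2 libraries per group limit all.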
